A study of Mus musculus with 8 samples.

Results

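Iron storage and transport genes were examined in the white fat that lies along the epididymis of male mice with and without a Cre-driven deletion of aromatase. The set holds 10 genes chosen by name among the 34866 rows of the deposited table: the ferritin chains Fth1 and Ftl1, the import genes Trf, Tfrc, Slc11a2 and Slc11a1, the export genes Slc40a1 and Cp, and the haem breakdown genes Hmox1 and Blvrb. All 10 genes were found in the table, and all 10 passed the filter on low counts, which left 12480 genes for testing. The control group holds 4 libraries from mice with the genotype Aromatase flox/flox, in which the aromatase gene Cyp19a1 is flanked by loxP sites on both chromosomes. The knockout group holds 4 libraries from aP2-Cre;Aromatase flox/flox mice, which have the floxed gene and also a Cre transgene driven by the promoter of Fabp4 (aP2), which encodes a carrier of fatty acids. That promoter is active in adipocytes and is known to be active in some macrophages as well. No group with the transgene alone was analysed here, so its effect cannot be told apart from that of the deletion. The labels give no ages, and they do not say whether the libraries of a group came from separate animals, so the p-values measure the spread between these libraries.

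Iron enters most cells bound to transferrin, which is taken up by the transferrin receptor and releases its iron in endosomes. Iron that is not used is stored in the shell of ferritin, made of heavy and light chains, or leaves through ferroportin. Tissue macrophages also recover iron from haem, which haem oxygenase opens, and they hold much of the iron that adipose tissue stores. Cells balance these steps partly through iron regulatory proteins, which bind hairpins in RNA when iron is scarce. Binding in the 5′ UTR stops translation of the ferritin and ferroportin messages, while binding in the 3′ UTR of the transferrin receptor message protects it from decay. Of these forms of control, the protection of the Tfrc message changes an RNA level, and the block on ferritin translation does not.

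The hairpins were searched for in the GENCODE M21 transcripts (GRCm38) because a member that holds one may be under that control. The pattern was CNNNNNCAGTGNNNNNN, with the 5 bases on either side of the CAGTGN loop paired in all 5 positions (G-T pairs allowed) and at least 3 of 6 further pairs below the unpaired C. It was searched on the transcript strand alone, since the element works in RNA. It was found in a UTR of 4 of the 10 members and of 64 of 21782 protein-coding genes, or 0.294%. The sites follow as DNA, 5′ to 3′, with the unpaired C and the loop in capitals.
Fth1, 5′ UTR, chr19:9982732-9982761, plus strand: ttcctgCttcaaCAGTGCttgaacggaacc
Ftl1, 5′ UTR, chr7:45459778-45459807, minus strand: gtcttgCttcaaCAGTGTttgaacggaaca
Slc40a1, 5′ UTR, chr1:45925464-45925493, minus strand: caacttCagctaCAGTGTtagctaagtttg
Tfrc, 3′ UTR, chr16:32631219-32631248, plus strand: aattatCggaagCAGTGCcttccataatta
Tfrc, 3′ UTR, chr16:32631598-32631627, plus strand: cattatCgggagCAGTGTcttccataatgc
Tfrc, 3′ UTR, chr16:32631663-32631692, plus strand: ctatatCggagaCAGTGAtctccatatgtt
Tfrc, 3′ UTR, chr16:32631710-32631739, plus strand: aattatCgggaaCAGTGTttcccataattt
The Fth1, Ftl1 and Slc40a1 matches lie upstream of the coding sequence, and the 4 Tfrc matches lie in exon 19, the last of the transcript. A match is a description of these letters. The lack of one in the other 6 members, Slc11a2 among them, says only that this pattern is not in their annotated transcripts. It does not show that they are free of such control.

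The libraries held 1538427 to 3053565 estimated counts. Levels are given as CPM, the counts scaled to a common library total with factors from the trimmed mean of M values. No counts in a library allows up to 3 counts, or 0.982 to 1.95 CPM, which covers counting error only. Cyp19a1, the targeted gene (chromosome 9, 54165937 to 54268110), had 2.003, 1, 5.017 and 1 estimated counts in the control libraries by replicate number, and the knockout libraries had 0, 4, 2.08 and 1.592. The deletion could not be checked with so few counts (exact permutation p = 0.686, two-sided). Adipocyte markers made up 46930 to 62060 summed CPM in the control and 39495 to 58005 summed CPM in the knockout libraries. Of 8 epididymis markers, 6 were at 0 in all libraries. The others were Adam7 and Rnase10. Adam7 had 22 counts (8.53 CPM) in knockout replicate 3 and 9 in control replicate 2. Rnase10 had 4 counts in control replicate 1 and 3 in knockout replicate 1.

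No member passed the test between the genotypes. With edgeR's quasi-likelihood test, 0 of the 10 genes had an adjusted p under 0.05, where 0.168% of all tested genes did, and the members' adjusted p-values ran from 0.83 to 0.996. At an unadjusted p under 0.05 the count was also 0 of 10, by edgeR, DESeq2 and limma-voom alike, against 6.39% of all tested genes in edgeR. In every member the CPM values of the control and knockout libraries overlapped, while 4.21% of tested genes showed no overlap. The fold changes were positive for 5 members and negative for 5, with a median log2 fold change of 0.01, and the median over all tested genes was 0.00. The 95% interval of the fold change lay within 2-fold in either direction for 9 of 10 members, and within 1.5-fold for 7 of 10. Of all tested genes, 76.7% and 43.7% had intervals inside those limits. These shares were not matched to the members by expression level. Among the members the exception at 2-fold was Slc11a1.

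**Figure D1:**
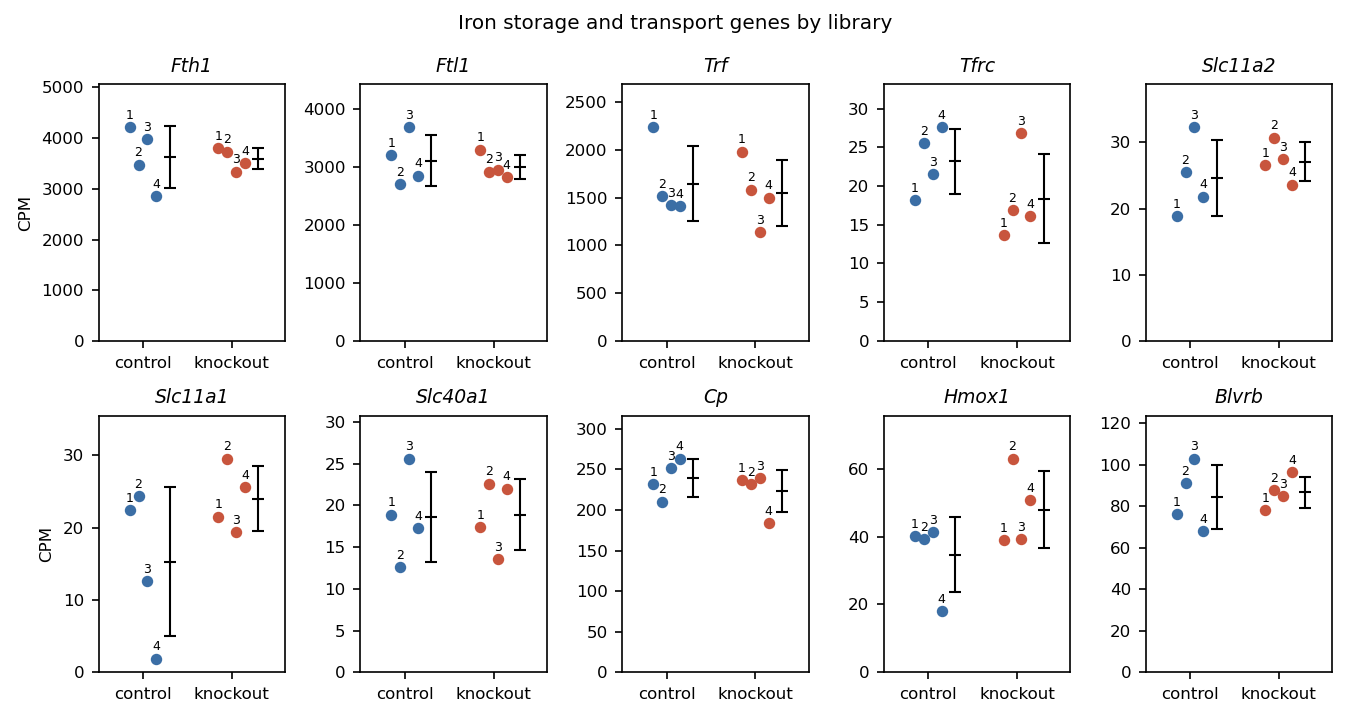
CPM of the 10 iron genes in each library; each panel has its own vertical axis from 0, points are libraries numbered by replicate, and the bar beside them is the mean ± SD of 4. The genotypes overlap in all 10 panels, and control replicate 4 is the lowest point for Fth1, Slc11a1, Hmox1 and Blvrb.

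The ferritin chains were abundant and nearly level. Fth1 encodes the heavy chain, which oxidises iron as it enters the shell (chromosome 19, 9980598 to 9985098). It was at 4215, 3475, 3976 and 2851 CPM in control replicates 1 to 4 and at 3802, 3733, 3339 and 3509 CPM in knockout replicates 1 to 4. All knockout libraries lay inside the range of the control libraries. The means were 3629 ± 604 and 3596 ± 212 CPM (SD, n = 4 each), a log2 fold change of -0.01 with a 95% interval from -0.30 to 0.27 (edgeR adjusted p = 0.996). Fth1 alone took 0.289% to 0.396% of all counts in a library.

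Ftl1 encodes the light chain, which helps the iron core to form (chromosome 7, 45457944 to 45459884). It was at 3202, 2711, 3689 and 2852 CPM in the control libraries and at 3304, 2922, 2954 and 2830 CPM in the knockout libraries, in replicate order. Here too every knockout library fell within the control range. The means were 3113 ± 436 and 3003 ± 208 CPM (SD, n = 4 each), with a log2 fold change of -0.05 and a 95% interval from -0.32 to 0.21 (edgeR adjusted p = 0.982). For Fth1 the interval corresponds to 0.815-fold to 1.20-fold of the control level, and for Ftl1 to 0.802-fold to 1.16-fold.

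The Ftl1 values rest on how reads were divided among near-identical genes. Of the words of 31 bases in the transcripts of Ftl1-ps1 (chromosome 13, 74399694 to 74407346), 63.5% also occur in Ftl1. Ftl1-ps1 was assigned 1162, 453, 39.53 and 421.9 estimated counts in the control libraries by replicate number, against 483.7, 528.6, 345.5 and 387.3 for the knockout. Of the counts on the pair, this was 0.478% in control replicate 3 and 11.2% in control replicate 1, with the other 6 libraries in between. When the counts of Ftl1-ps1 and 2 other copies were added to those of Ftl1, the log2 fold change was -0.07 (edgeR adjusted p = 0.96). Fth1 shared at most 102 of its 3578 words with any other gene of the table, and the copies that shared words with it held few counts.

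**Figure D2:**
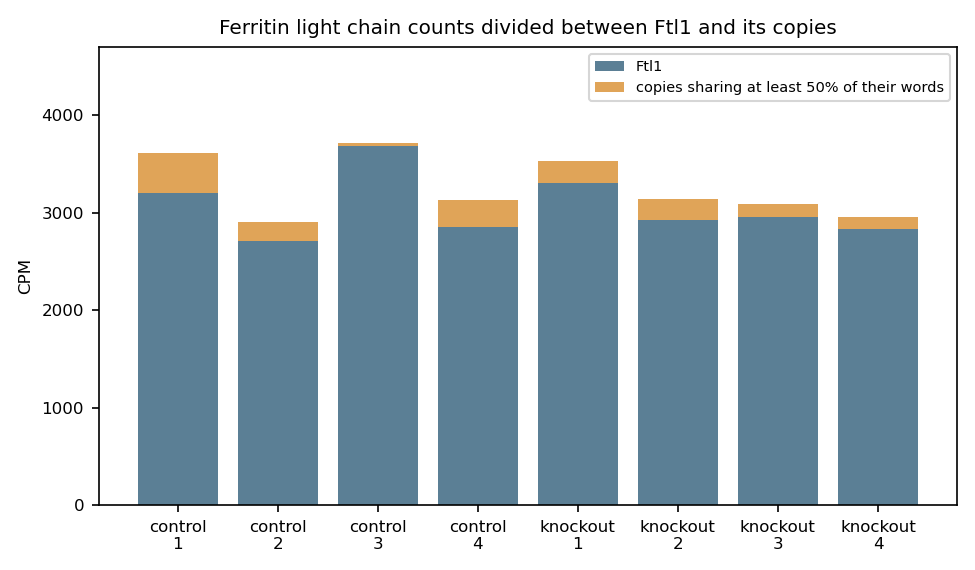
CPM assigned to Ftl1 (lower part of each bar) and to the copies of Ftl1 that share at least 50% of their 31-base words with it (upper part), per library. The upper part is thinnest in control replicate 3 and thickest in control replicate 1, and the full bars run from 2901 to 3713 CPM.

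The ratio of heavy to light chain counts also stayed close between the genotypes. Fth1 over Ftl1 was 1.32, 1.28, 1.08 and 1.00 by replicate in the control group, and 1.15, 1.28, 1.13 and 1.24 by replicate in the knockout group. These are ratios of estimated counts and were compared only between libraries. They depend on how reads were divided between Ftl1 and its copies. The means were 1.17 ± 0.154 and 1.20 ± 0.0704 (SD, n = 4 each), and the groups overlapped. With the copies added to Ftl1 they were 1.09 ± 0.128 and 1.13 ± 0.0628.

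Among the import genes, Trf encodes transferrin, the iron carrier of plasma, known as a liver product that adipocytes make as well (chromosome 9, 103204001 to 103230444). Trf was at 2237, 1517, 1423 and 1411 CPM in control replicates 1 to 4 and at 1980, 1582, 1139 and 1499 CPM in knockout replicates 1 to 4. One library of each genotype, replicate 1, stood above the other 3, and knockout replicate 3 was the lowest of all. The means were 1647 ± 396 and 1550 ± 345 CPM (SD, n = 4 each; log2 fold change -0.09, 95% interval -0.49 to 0.31, edgeR adjusted p = 0.976). Hepatocyte markers summed to 6.29 to 23.8 CPM over 6 genes in the control and to 7.26 to 21.0 CPM in the knockout group. The 1 marker of these that passed the filter was Alb, the gene of serum albumin, at 3.14 to 21.1 CPM in the control and 0.807 to 15.4 CPM in the knockout libraries. The part of liver RNA in the Trf values was not tested.

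Tfrc encodes the transferrin receptor that takes up loaded transferrin (chromosome 16, 32608920 to 32632794), and its message holds the 3′ UTR hairpins printed above. It was at 18.2, 25.5, 21.5 and 27.6 CPM in the control libraries and at 13.7, 16.9, 26.8 and 16.1 CPM in the knockout libraries. Knockout replicates 1, 2 and 4 lay below the lowest control library, and knockout replicate 3 lay near the highest. The means were 23.2 ± 4.19 and 18.4 ± 5.75 CPM (SD, n = 4 each), a log2 fold change of -0.32 with a 95% interval from -0.83 to 0.19 (edgeR adjusted p = 0.912). The interval spans 0.563-fold to 1.14-fold of the control level. Without knockout replicate 3 the log2 fold change of Tfrc was -0.56. Tfrc had the most negative fold change of the 10 members.

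The ratio of ferritin counts, Fth1 plus Ftl1, to Tfrc counts sets the RNA of the ferritin chains beside that of the receptor. It does not measure stored iron or iron uptake. By replicate it was 408, 242, 356 and 207 for the control group, and 517, 393, 235 and 394 for the knockout group. The means were 303 ± 94.5 and 385 ± 116 (SD, n = 4 each), and the groups overlapped, with knockout replicate 1 alone above the control range. The log2 difference of the ratio, 0.34, largely repeats the -0.32 of Tfrc with its sign turned, as the ferritin chains were nearly level.

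Slc11a2 and Slc11a1 encode divalent metal transporters of the same family. Slc11a2 (DMT1) passes iron from endosomes to the cytosol in most cells (chromosome 15, 100387898 to 100425072). It was at 18.9, 25.5, 32.3 and 21.8 CPM in control replicates 1 to 4 and at 26.6, 30.7, 27.5 and 23.6 CPM in knockout replicates 1 to 4. The knockout values all lay within the control range (log2 fold change 0.14, 95% interval -0.28 to 0.55, edgeR adjusted p = 0.949).

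Slc11a1 (NRAMP1) serves the phagosomes of macrophages and related cells (chromosome 1, 74375195 to 74386062), and it was the most variable member. It was at 22.4, 24.3, 12.6 and 1.92 CPM in control replicates 1 to 4, the last from 3.307 estimated counts, and at 21.5, 29.5, 19.4 and 25.6 CPM in knockout replicates 1 to 4. The knockout libraries lay close to control replicates 1 and 2, and control replicates 3 and 4 lay below all of them. The means were 15.3 ± 10.3 and 24.0 ± 4.46 CPM (SD, n = 4 each), a log2 fold change of 0.59 with a 95% interval from -0.47 to 1.65 (edgeR adjusted p = 0.922). Without control replicate 4, the smallest library, the log2 fold change of Slc11a1 was 0.27, and without control replicate 2 it was 0.88. The biological coefficient of variation fitted by edgeR was 47.1% for Slc11a1 and 13.8% to 22.7% for the other 9 members.

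Export was represented by 2 genes. Slc40a1 encodes ferroportin, the exporter of ferrous iron (chromosome 1, 45908068 to 45926523). It was at 18.9, 12.6, 25.6 and 17.3 CPM in control replicates 1 to 4 and at 17.4, 22.6, 13.6 and 22.0 CPM in knockout replicates 1 to 4, with all knockout values inside the control range. The means were 18.6 ± 5.38 and 18.9 ± 4.23 CPM (SD, n = 4 each; log2 fold change 0.03, 95% interval -0.51 to 0.56, edgeR adjusted p = 0.996).

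Cp encodes ceruloplasmin, a copper ferroxidase that oxidises exported iron so that transferrin can bind it (chromosome 3, 19957054 to 20009145). Cp was at 232, 210, 251 and 263 CPM in control replicates 1 to 4 and at 237, 232, 239 and 184 CPM in knockout replicates 1 to 4. Knockout replicate 4 was the lowest library and the other 3 lay inside the control range. The means were 239 ± 23.0 and 223 ± 26.2 CPM (SD, n = 4 each; log2 fold change -0.10, 95% interval -0.36 to 0.16, edgeR adjusted p = 0.943).

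Of the haem breakdown genes, Hmox1 encodes the inducible haem oxygenase, which opens haem and frees its iron (chromosome 8, 75093621 to 75100589). It had the smallest p of the 10 members. Hmox1 was at 40.2, 39.3, 41.3 and 18 CPM in control replicates 1 to 4 and at 38.9, 62.9, 39.2 and 50.8 CPM in knockout replicates 1 to 4. Knockout replicates 2 and 4 were above all control libraries, knockout replicates 1 and 3 were level with control replicates 1 to 3, and control replicate 4 was far below the rest. The means were 34.7 ± 11.2 and 48.0 ± 11.4 CPM (SD, n = 4 each), a log2 fold change of 0.45 with a 95% interval from -0.07 to 0.96 (edgeR adjusted p = 0.83). Without control replicate 4 the log2 fold change of Hmox1 was 0.25, and without knockout replicate 2 it was 0.29.

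Blvrb encodes a reductase of biliverdin and flavins, one of the enzymes that act after haem oxygenase (chromosome 7, 27447978 to 27466144). It was at 76.2, 91.2, 103 and 68.0 CPM in control replicates 1 to 4 and at 78.3, 87.9, 84.9 and 96.4 CPM in knockout replicates 1 to 4, with every knockout value within the control range. The means were 84.5 ± 15.5 and 86.9 ± 7.51 CPM (SD, n = 4 each; log2 fold change 0.04, 95% interval -0.26 to 0.33, edgeR adjusted p = 0.984).

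**Figure D3:**
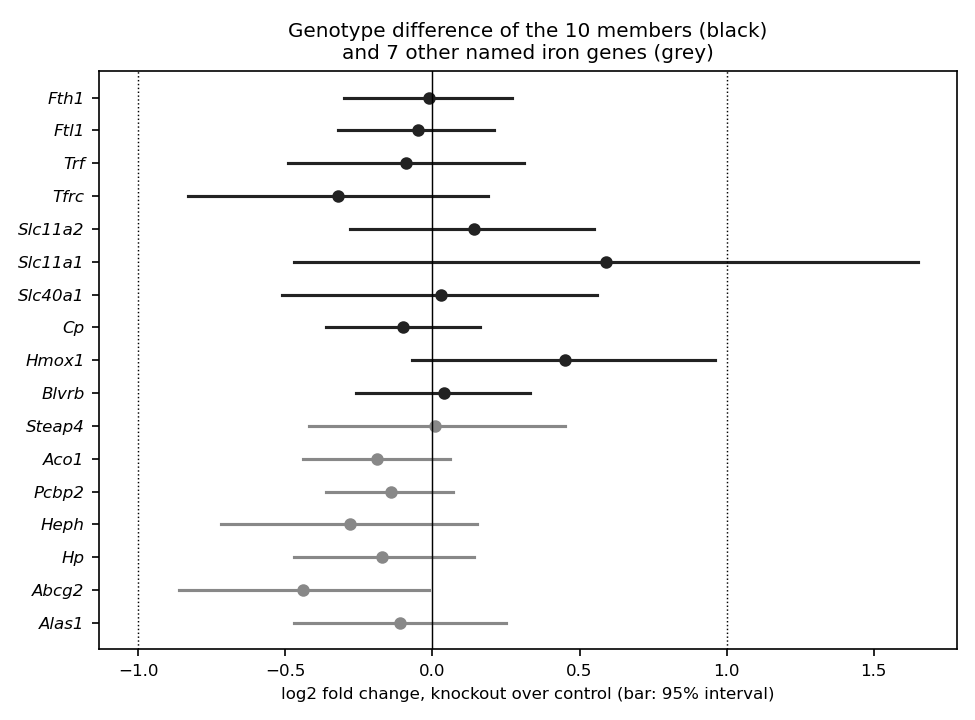
Log2 fold change of knockout over control (points) with its 95% interval from edgeR (bars) for the 10 members in black and 7 other iron genes in grey; dotted lines mark 2-fold. All black bars cross 0, and the bar of Slc11a1 alone among them passes a dotted line.

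Most macrophage markers stood higher in the knockout libraries. Macrophages are the known site of Slc11a1 and a main site of Hmox1 and Slc40a1. Of 24 markers, 22 were tested and 19 had a positive fold change (median log2 fold change 0.43). The 3 negative ones were Cd163 (-0.19), Lyve1 (-0.08) and Mertk (-0.06). Some positive ones were small, such as C1qa (0.15) and C1qc (0.11), so the rise was not shared by all markers. With edgeR, 4 passed an adjusted p of 0.05, all higher in the knockout, where 0.12% of all tested genes did so: Cd68, Lyz2, Ctss and Gpnmb. The marker list was chosen with earlier results of these data known, so this count is not independent of them. The summed marker level was 1362 to 1504 CPM in the control and 1988 to 2433 CPM in the knockout group, and no marker was at 0 in all libraries. Leaving out 1 library kept the fold changes of these 4 markers between 0.76 and 1.71 on the log2 scale. Ctss passed each time, while 1 marker was left without control replicate 2 (Ctss) and 2 without knockout replicate 1 (Ctss and Lyz2). In bulk tissue, a different number of cells and a different amount of RNA per cell cannot be told apart. The part of this difference in the Slc11a1 and Hmox1 values was not tested. Blood markers, which include the globins that carry haem iron, summed to 3057 to 6717 CPM in the control and 2933 to 4956 CPM in the knockout group, and 0 of the 6 tested passed.

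**Figure D4:**
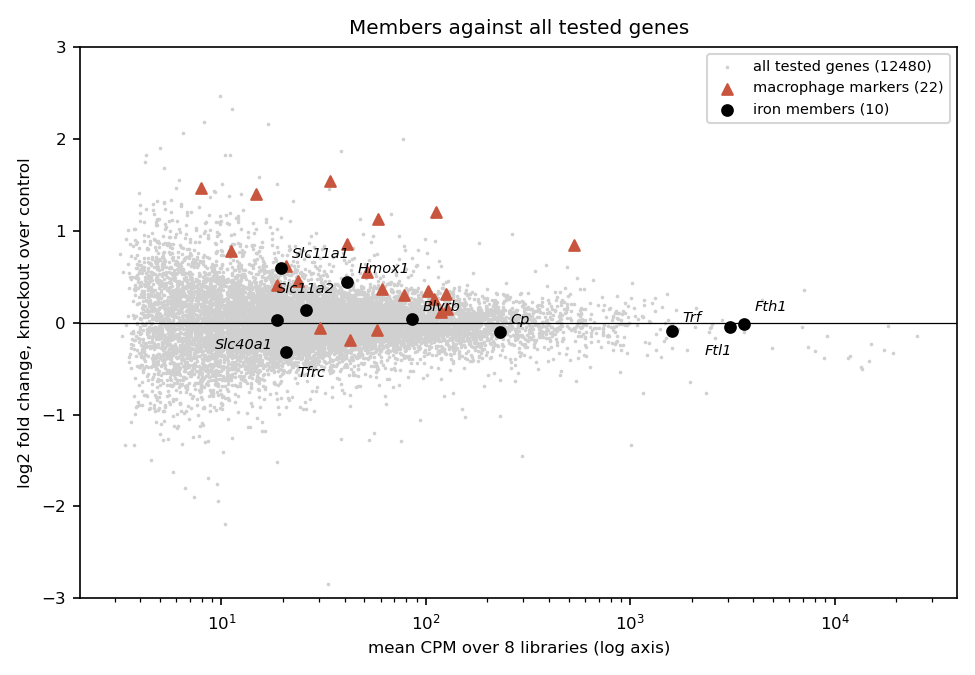
Log2 fold change of knockout over control against mean CPM (log axis) for the 12480 tested genes (grey), the 22 tested macrophage markers (red triangles) and the 10 iron genes (black, named); 5 genes lie beyond the vertical range. The iron genes lie between -0.32 and 0.59, and the macrophage markers between -0.19 and 1.54.

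The other genes of iron handling did not pass either. Of 52 listed genes in 6 roles, 41 were tested, and 0 had an adjusted p under 0.05 in edgeR, DESeq2 or limma-voom. In edgeR 0.168% of all tested genes did. Of the 41, Abcg2 alone had an unadjusted p under 0.05 in edgeR, where 6.39% of all tested genes did. In each of the other tools 2 of the 41 had one. The median log2 fold change was -0.11, with 12 positive and 29 negative, where 50.3% of all tested genes were negative. The 11 genes below the filter included Hamp, the gene of the iron hormone hepcidin, which had no counts in any of the 8 libraries.

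Abcg2, a transporter that can carry porphyrins out of cells, was at 32.8, 34.7, 44.0 and 38.5 CPM in control replicates 1 to 4 and at 25.6, 25.4, 20.2 and 38.7 CPM in knockout replicates 1 to 4. Of the knockout libraries, 3 lay below all control libraries and replicate 4 lay among them (log2 fold change -0.44, edgeR adjusted p = 0.775). Without knockout replicate 4 the log2 fold change was -0.66, and without knockout replicate 3 it was -0.31.

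The gene with the highest mean CPM was taken from each role. Steap4, a metalloreductase, was at 382 ± 107 CPM in control and 387 ± 63.2 CPM in knockout libraries. Aco1, the aconitase that becomes iron regulatory protein 1 when it lacks its iron-sulphur cluster, was at 157 ± 13.5 and 138 ± 16.1 CPM. The iron chaperone gene Pcbp2 was at 353 ± 6.10 and 319 ± 22.9 CPM (SD, n = 4 each throughout). Pcbp2 was the 1 tested gene of the 41 whose groups did not overlap, at 346 to 361 CPM in the control and 291 to 343 CPM in the knockout libraries (edgeR adjusted p = 0.91), where 4.21% of all tested genes had no overlap.

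Heph, which encodes a ferroxidase related to ceruloplasmin, was at 58.1 ± 8.73 and 48.2 ± 16.4 CPM. Knockout replicate 1 was at 72.8 CPM, and without it the log2 fold change of Heph moved from -0.28 to -0.54 (edgeR adjusted p = 0.502). Hp, which encodes the haemoglobin-binding protein haptoglobin, was at 2756 ± 551 and 2457 ± 268 CPM. Alas1, the first enzyme of haem synthesis, was at 174 ± 44.4 and 162 ± 15.9 CPM (SD, n = 4 each throughout). The log2 fold changes of these 6 genes lay between -0.28 and 0.01, with edgeR adjusted p-values from 0.899 to 0.998.

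In the role of mitochondrial iron and haem synthesis 11 of 13 genes were negative, where 50.3% of all tested genes were. The median log2 fold change was -0.23, with a range from -0.29 to 0.26. None of the 13 passed in edgeR, where 0.168% of all tested genes did. None had an unadjusted p under 0.05 in edgeR either, where 6.39% of all tested genes did. The medians of the other 5 roles lay between -0.11 and -0.02.

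**Figure D5:**
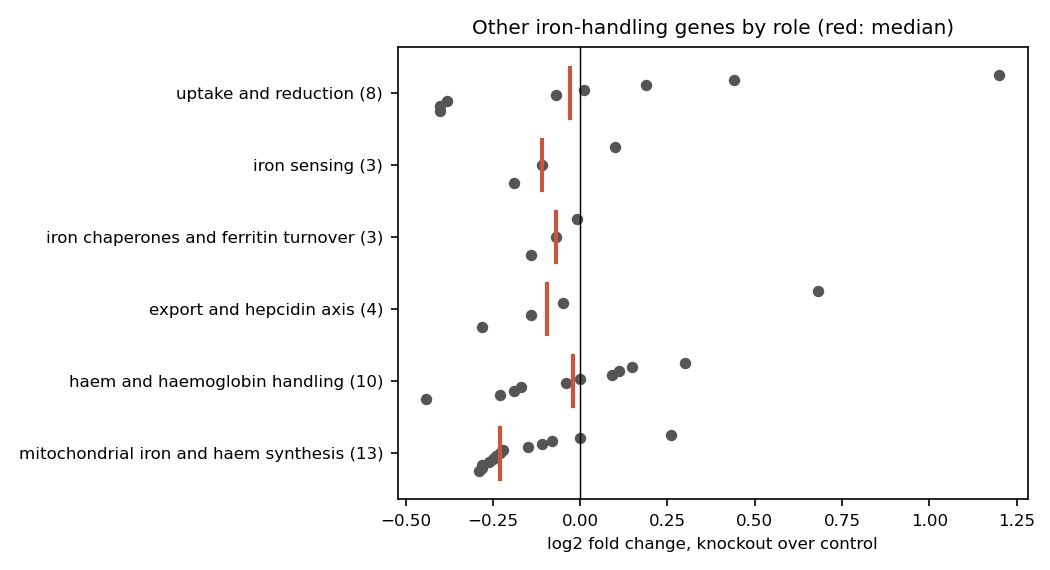
Log2 fold change of knockout over control for the 41 tested iron-handling genes outside the set of 10, by role, with the number of genes in parentheses; each point is a gene and the red line is the median. Points of mitochondrial iron and haem synthesis lie mostly left of 0, and the point farthest right is Tfr2 at 1.20, a gene of under 17 CPM in every library.

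Genes that followed the members across the 8 libraries were picked by the correlation of log2 CPM for the member with the highest mean and for the one with the smallest p. For Fth1 the 5 closest were Aqp7, Slfn5, Eif4ebp1, Iqcc and Fli1, with Pearson r of 0.96 or 0.97 and Spearman rho of 0.93 to 1.00. Without control replicates 1 and 4, the libraries farthest from the Fth1 median, their r was 0.80 to 0.98. For Hmox1 the 5 closest were Pole3, Npr2, Svep1, Arhgdib and Tinagl1, with r of 0.95 to 0.97 and rho of 0.64 to 0.90. Without control replicate 4 and knockout replicate 2, the extremes for Hmox1, their r was 0.41 to 0.78, so the likeness to Hmox1 rests largely on those libraries. These genes were taken as the closest of 12480, the libraries share their depth and normalization across genes, and none of the 10 passed the genotype test.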

How the data were processed

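RNA was measured in 8 samples, 4 of each genotype as the labels give it. Per the labels' protocols, libraries were made by BRB-seq, a method primed with oligo-dT that reads transcript ends, with 10 cycles of PCR and an insert read of 51 bases. The authors' deposited table holds estimated counts per gene, not normalized, 59.6% of the values above 0 being whole. Salmon and GRCm38 are named in the submitters' processing notes, while the annotation, and whether molecular identifiers were counted, are not given in the sources used here. Salmon divides reads among similar transcripts, which touches Ftl1 and may touch other members. Slc11a1 and Slc11a2 also had estimated counts that were not whole, such as 63.56 and 54.5 in control replicate 1. With any single other gene they shared at most 39 of 3844 and 16 of 6287 words of 31 bases. Trf shared up to 2050 of its 3384 words with another gene.

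Rows were named by Ensembl identifier without its version through GENCODE M21 (34652 of 34866 found), which also gave the coordinates. Estimated counts were rounded and tested with edgeR 4.0.16 (R 4.3.3): TMM factors, filterByExpr, a robust quasi-likelihood fit with genotype as the only term, and Benjamini-Hochberg adjustment over 12480 genes. Intervals are the fitted coefficient with its standard error and the test's degrees of freedom. Log2 CPM used a prior count of 2. The alternatives tried were upper-quartile and RLE factors, no filter, DESeq2 1.42.0, limma-voom (limma 3.58.1), a replicate block, each library left out, downsampling to 1538253 counts, and copies summed. The exact test used scipy 1.17.1. The fit was also run on simulated counts that had the same dispersion for every gene. The real genes differ in dispersion, so no conclusion is drawn from that run.

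Named genes are the 10 members, the wider iron genes with an adjusted or unadjusted p under 0.05 or the highest mean of their role, and the 5 genes most correlated with 2 members. Tfr2, Hamp and the 4 macrophage markers past the threshold were named after their values were seen. The members and lists were chosen with earlier results of these data known. Marker lists for endothelial, fibroblast and mesothelial cells had 0 of 6, 0 of 7 and 0 of 6 tested genes past the threshold, and the adipocyte list 0 of 14. In the adipocyte list 11 fold changes were negative and 3 positive, with a median log2 fold change of -0.14. Of all tested genes, 50.3% were negative.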

Additional observations from a re-analysis of the deposited data

Results flagged for a closer look

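The highest or lowest of 4 libraries was set apart where Dixon's ratio of its gap to the range passed the critical value. This happened in 5 of 44 sets of 4 values, and chance alone gives about 2.2 (1 in 20). Trf reached 2237 CPM in control replicate 1, with the other 3 at 1411 to 1517 CPM. Cp was at 184 CPM in knockout replicate 4, against 232 to 239 CPM in the other knockout libraries. Hmox1 was at 18 CPM in control replicate 4 and at 39.3 to 41.3 CPM in the remaining control libraries, and this is also the library with the fewest counts. Heph was at 72.8 CPM in knockout replicate 1, against 39.7 to 40.3 CPM in the other knockout libraries. The ratio of Tfrc to Slc40a1 counts was 1.97 in knockout replicate 3, against 0.731 to 0.796 in the other knockout libraries, and in the control libraries it ran from 0.842 to 2.03. The 5 values fell in 5 different libraries.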

How the results depend on the processing

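The count of members past the threshold was 0 of 10 under all 16 alternatives run, and that of the wider iron list was 0 as well. Across these the smallest adjusted p of a member was 0.701. An unadjusted p under 0.05 was reached by Hmox1 when the counts were downsampled and without the low-count filter, and by Tfrc without knockout replicate 3. The count over all genes, 21, was 54 with DESeq2, 58 without the low-count filter and 9 when downsampled. With the replicate block it was 6. Deviations of same-numbered libraries correlated at 0.25, -0.06, -0.01 and -0.24. The labels give no pairing beyond the number, and these correlations cannot settle whether same-numbered libraries were paired. With the block 2 of the 4 macrophage marker calls were left (Ctss and Gpnmb), and no member or wider iron gene changed its call. Leaving out 1 library gave 4 to 43 genes: 12, 4, 10 and 43 without control replicates 1 to 4, and 9, 13 and 13 without knockout replicates 1, 2 and 4. The count of macrophage markers past the threshold, 4, was 1 to 4 when 1 library was left out and 3 to 6 under the other alternatives apart from the block, a readout chosen after seeing the data. The cause was not tested.

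Of 152 values of members under an alternative, 136 kept sign and side of the threshold and 16 changed sign. The log2 fold change of Fth1 was 0.00 with the replicate block, that of Slc11a2 -0.04 when downsampled and that of Blvrb -0.01 with limma-voom. When 1 library was left out, the fold changes ran from -0.11 to 0.07 for Fth1, -0.11 to 0.04 for Ftl1, -0.23 to 0.10 for Trf, -0.13 to 0.22 for Slc40a1, -0.05 to 0.15 for Blvrb, -0.16 to 0.14 for Steap4 and -0.26 to 0.03 for Alas1. Tfrc stayed between -0.56 and -0.21, Hmox1 between 0.25 and 0.53, Slc11a1 between 0.27 and 0.88, Abcg2 between -0.66 and -0.31 and Heph between -0.54 and -0.20. Apart from Slc11a1 in control replicate 4, the values of Tfrc, Slc11a2, Slc11a1 and Slc40a1 rest on 27 to 78.39 estimated counts per library, which limits their precision.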
